A study of Mus musculus with 10 samples.

Results

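The 10 genes described here encode the core of the basement membrane made by muscle cells, namely *Col4a1* and *Col4a2* (collagen IV α1 and α2), *Lama2*, *Lama4* and *Lama5* (laminin α chains), *Lamb1* and *Lamb2* (laminin β chains), *Lamc1* (laminin γ1), *Nid1* (nidogen 1) and *Hspg2* (perlecan). They were found by their symbols among the 55359 genes of the deposited table, and all 10 passed the expression filter that left 13548 genes for testing. C2C12 is a mouse myoblast line whose cells fuse into myotubes in low serum. Both groups were C2C12 cells transfected with siRNA at 100 nM, with 5 libraries treated with a control siRNA (si-Control) and 5 with one that targets *Fndc1* (si-*Fndc1*), and the labels place all 10 libraries at 4 days of differentiation, whereas the series description names 48 h after transfection. The labels do not say whether the libraries came from separate cultures, so the p-values measure the spread between these libraries, and with cells of a single line and no second *Fndc1* siRNA among these libraries an effect of the siRNA and an effect of the loss of *Fndc1* cannot be told apart.

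A basement membrane is a thin sheet of matrix that coats each myofiber. Laminins, which are trimers of an α, a β and a γ chain, polymerise on the cell surface and are held there by integrins and dystroglycan. Collagen IV, a trimer that contains α1 and α2 chains, forms a separate covalent network, and nidogen and perlecan link both networks. In muscle the α2 chain of laminin is the best known of these components because its loss causes a congenital muscular dystrophy, and the layer also frames the niche of the satellite cells.

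In si-*Fndc1* libraries 7 of the 10 genes fell, none rose, and *Col4a1*, *Col4a2* and *Lama4* did not pass the test, whereas after a correction for GC content and length within each library only *Hspg2* fell and *Col4a1* and *Col4a2* rose. Among all tested genes 17.2% fell, 17.3% rose and 34.4% changed in either direction. The largest fall was that of *Hspg2*, whose level was 33.5% lower, followed by *Lama5* (24.6%) and *Lamb2* (19.9%), and after the correction the log2 fold changes of these 3 genes were -0.15, -0.04 and -0.06. The median log2 fold change of the 10 genes was -0.17, beside 0.00 for all tested genes. Changes were tested with edgeR's quasi-likelihood test and Benjamini-Hochberg adjustment over all 13548 genes, with an adjusted p-value under 0.05 as the threshold. Levels are given in FPKM (fragments per kilobase of transcript, scaled to the size of the library), as mean ± SD with n = 5 libraries.

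**Figure D1:**
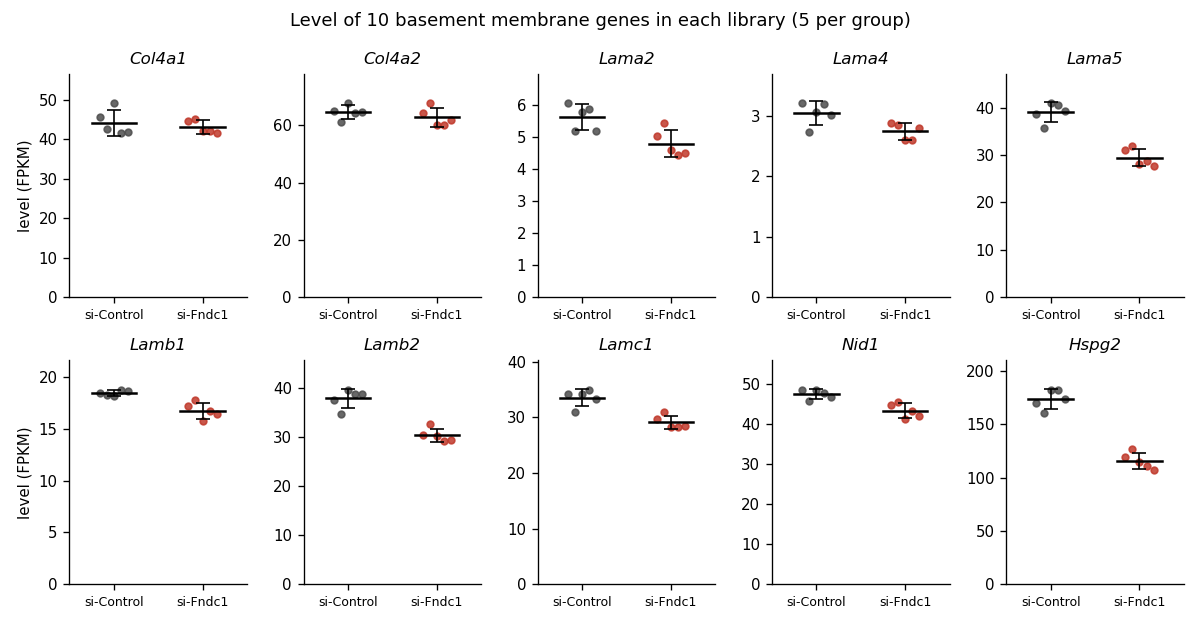
Level (FPKM) of each of the 10 genes in each library, with si-Control in grey and si-*Fndc1* in red. Points are libraries, the horizontal line is the mean and the bar is the SD (n = 5 per group), and each axis starts at 0. For 6 genes no si-*Fndc1* library reached the lowest si-Control library, which was also so for 13.0% of all tested genes. The gap was widest for *Hspg2* (at most 127.2 against at least 160.6 FPKM). The groups overlapped for *Col4a1*, *Col4a2*, *Lama2* and *Lama4*.

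Total counts per library were 66771605 to 75995168 for si-Control, against 56332844 to 72839369 for si-*Fndc1*. Together the 10 genes received 0.509% to 0.571% of all counts in si-Control libraries, against 0.398% to 0.457% in si-*Fndc1* libraries. *Fndc1* itself had 27.8 ± 2.04 FPKM in si-Control and 20.9 ± 1.70 FPKM in si-*Fndc1* (log2 fold change -0.40, adjusted p = 0.000934 in edgeR's quasi-likelihood test), and its log2 fold change was -0.22 after the correction (adjusted p = 0.0104). The muscle markers were present, with all 10 of *Myod1*, *Myog*, *Myf5*, *Pax7*, *Des*, *Mymk*, *Mymx*, *Myh3*, *Ckm* and *Actc1* among the tested genes and summed levels of 2215 to 2481 FPKM in si-Control against 2136 to 2448 FPKM after knockdown. Single markers moved in both directions, with *Ckm* (log2 fold change 0.39, adjusted p = 0.000201), *Mymk* (0.26, adjusted p = 0.0188) and *Myod1* (0.16, adjusted p = 0.0162) higher and *Mymx* (-0.17, adjusted p = 0.0442, edgeR) lower in si-*Fndc1*. After the correction 3 of the 10 markers rose and 3 fell, with *Ckm* at 0.57, and the part of these differences in the results below was not tested. Markers of endothelial cells (7 genes, of which *Cdh5* and *Emcn* were at 0 in every library) summed to at most 0.298 FPKM, and those of Schwann cells and adipocytes (6 genes, with *Adipoq*, *Plin1* and *Cfd* at 0) to at most 0.241 FPKM. Markers of epithelial cells (6 genes, *Epcam* at 0) summed to 4.18 to 4.89 FPKM in si-Control against 4.04 to 5.55 FPKM after knockdown, those of fibroblasts and smooth muscle (6 genes, *Tcf21* at 0) to 5.35 to 5.84 and 5.38 to 6.12 FPKM, and those of blood cells (5 genes, *Ptprc* and *Cd3e* at 0) to 1.146 to 2.23 and 1.86 to 2.88 FPKM. All 8 hepatocyte markers rose, from a sum of 0 to 5.47 FPKM in si-Control libraries to 44.1 to 162 FPKM in si-*Fndc1* libraries, and the part of these transcripts in the results below was not tested. In si-*Fndc1* libraries 1 to 5 the hepatocyte sums were 95.4, 161.8, 155.0, 158.1 and 44.1 FPKM. The sums over the 10 basement membrane genes were 388.7, 407.2, 367.0, 366.1 and 361.9 FPKM in the same order, against 438 to 490 FPKM in si-Control. In bulk RNA, fewer cells that express a gene and less RNA per cell cannot be told apart.

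Collagen IV gives the basement membrane its tensile strength, and its α1 and α2 chains are joined in a single trimer. *Col4a1* (ENSMUSG00000031502) lies on chromosome 8 from 11248423 to 11362826 (minus strand) and *Col4a2* (ENSMUSG00000031503) on chromosome 8 from 11362805 to 11499287 (plus strand), in the coordinates of the table, whose build is not stated in it and for which the submitters' processing notes name GRCm39. The genes thus lie head to head and share 22 bases, and they are known to be transcribed from a bidirectional promoter. RefSeq promoter windows (250 bases before to 50 bases after the start, build GRCm38.p6) were found for 8 of the 10 genes, all but *Lama4* and *Lamc1*. The windows of *Col4a1* and *Col4a2* are printed because they are the same piece of chromosome read from opposite strands over 78 bases, with start sites 21 bases apart. Capitals mark a GC box (GGGCGG) or a CCAAT box (CCAAT) on either strand.
*Col4a1* (chr8:11312777-11313076, minus strand): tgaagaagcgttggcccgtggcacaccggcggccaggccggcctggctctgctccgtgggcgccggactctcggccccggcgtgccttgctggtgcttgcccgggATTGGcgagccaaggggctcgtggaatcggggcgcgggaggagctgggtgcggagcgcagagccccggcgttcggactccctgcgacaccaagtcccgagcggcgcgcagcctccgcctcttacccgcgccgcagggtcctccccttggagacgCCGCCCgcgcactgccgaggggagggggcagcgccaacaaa
*Col4a2* (chr8:11312555-11312854, plus strand): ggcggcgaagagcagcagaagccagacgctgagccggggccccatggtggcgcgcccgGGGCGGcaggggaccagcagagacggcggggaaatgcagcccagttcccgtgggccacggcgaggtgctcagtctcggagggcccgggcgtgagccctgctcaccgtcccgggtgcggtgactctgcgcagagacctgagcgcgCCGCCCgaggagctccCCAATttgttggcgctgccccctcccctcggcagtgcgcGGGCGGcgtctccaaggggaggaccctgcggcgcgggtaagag
The *Col4a1* window had a GC content of 74.0% and the *Col4a2* window one of 73.7%, against a median of 52.7% over all 32851 windows. Each held 1 CCAAT box, which 37.4% of all windows do, and neither held a TATA box (TATAAA), which 13.6% do. GC boxes numbered 1 in the *Col4a1* window and 3 in the *Col4a2* window, and 35.7% of all windows hold at least 1. The GC box of the *Col4a1* window lies in the shared 78 bases and is also counted in the *Col4a2* window, on the opposite strand.

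*Col4a1* had 45.6, 42.6, 49.2, 41.5 and 41.8 FPKM in si-Control libraries 1 to 5 and 44.5, 45.2, 41.96, 42.1 and 41.6 FPKM in si-*Fndc1* libraries 1 to 5. All si-*Fndc1* values fell inside the si-Control range, and the highest library was si-Control replicate 3. The means were 44.2 ± 3.26 and 43.1 ± 1.66 FPKM, with a log2 fold change of -0.03 (standard error, SE, 0.05, adjusted p = 0.712 in edgeR's quasi-likelihood test) that turned to 0.22 once GC content and length were corrected for. *Col4a2* had 65.2, 61.0, 67.8, 64.3 and 64.5 FPKM in si-Control and 64.5, 67.9, 60.1, 60.1 and 61.8 FPKM in si-*Fndc1*. Of these, 2 si-*Fndc1* libraries lay below and 1 above the si-Control range. The means were 64.6 ± 2.42 and 62.9 ± 3.34 FPKM (log2 fold change -0.03, SE 0.04, adjusted p = 0.607, edgeR, and 0.27 after the correction). The ratio of *Col4a2* to *Col4a1* was 1.47 ± 0.0763 in si-Control and 1.46 ± 0.0341 in si-*Fndc1* (two-sided exact permutation test, p = 0.913, adjusted over 6 ratios and shares p = 0.913), with libraries between 1.38 and 1.55.

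The laminin α chains set which receptors a laminin binds. *Lama5* (ENSMUSG00000015647, chromosome 2 from 179818166 to 179867652, minus strand), the α chain of the laminins found in most adult basement membranes, was the most abundant of the 3 by FPKM. Its levels were 38.7, 35.8, 41.0, 40.5 and 39.3 FPKM in si-Control and 31.0, 31.8, 28.0, 28.8 and 27.8 FPKM in si-*Fndc1*. The groups did not overlap, as was the case for 6 of the 10 genes and for 13.0% of all tested genes in this direction. The means of 39.1 ± 2.04 and 29.5 ± 1.82 FPKM gave a log2 fold change of -0.40 (SE 0.05, adjusted p = 0.000183 by edgeR). *Lama2* (ENSMUSG00000019899, chromosome 10 from 26856032 to 27495754, minus strand), the α chain of the main laminin of the mature myofiber, had 6.06, 5.17, 5.77, 5.86 and 5.19 FPKM in si-Control and 5.02, 5.43, 4.59, 4.45 and 4.49 FPKM in si-*Fndc1*. Only si-*Fndc1* replicate 2 reached into the si-Control range. The log2 fold change was -0.22 (SE 0.07, adjusted p = 0.0262 by edgeR), and the adjusted p-value lay above the threshold, between 0.0543 and 0.0644, with si-Control replicate 1, 3 or 4 or si-*Fndc1* replicate 3, 4 or 5 left out. *Lama4* (ENSMUSG00000019846, chromosome 10 from 38841511 to 38986184, plus strand), an α chain best known from the basement membranes of vessels, was the least abundant of the 10 genes. It had 3.22, 2.73, 3.07, 3.20 and 3.02 FPKM in si-Control and 2.88, 2.85, 2.60, 2.60 and 2.80 FPKM in si-*Fndc1*. Of the si-Control libraries replicate 2 was the lowest and lay among the si-*Fndc1* values. The log2 fold change of -0.14 (SE 0.05) had an adjusted p-value of 0.0612 in edgeR, and one of 0.0135 (log2 fold change -0.18) without si-Control replicate 2.

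*Lama5* made up 81.9% ± 0.772 of the summed FPKM of the 3 α chains in si-Control and 79.6% ± 0.442 in si-*Fndc1*, and *Lama4* made up 6.38% ± 0.210 and 7.43% ± 0.337. In neither share did the groups overlap (two-sided exact permutation test, p = 0.00794 each, the smallest that 5 against 5 allow, and p = 0.0119 adjusted over 6 ratios and shares). Once GC content and length were corrected for both differences lay within the spread of the libraries, with *Lama5* at 80.7% and 80.9% (permutation test, adjusted p = 0.532) and *Lama4* at 6.81% and 6.96% (adjusted p = 0.452). The sizes of the shares also depended on the transcript length behind FPKM. With the length of the longest protein-coding transcript, and no correction, *Lama5* made up 71.35% in si-Control and 68.29% in si-*Fndc1*. *Lama4* then made up 11.12% and 12.73%, and the groups again did not overlap.

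*Lamb1* (ENSMUSG00000002900, chromosome 12 from 31315233 to 31379643, plus strand) encodes the β1 chain, which is found in most laminins, and *Lamb2* (ENSMUSG00000052911, chromosome 9 from 108356935 to 108367729, plus strand) the β2 chain, which in muscle is known from the neuromuscular junction. *Lamb1* had 18.4, 18.2, 18.1, 18.8 and 18.6 FPKM in si-Control and 17.2, 17.7, 15.7, 16.7 and 16.4 FPKM in si-*Fndc1*. The groups did not overlap, and the SD of the si-Control libraries was 1.42% of their mean, the narrowest si-Control spread of the 10 genes. The log2 fold change was -0.13 (SE 0.03, adjusted p = 0.0111 by edgeR) and turned to 0.03 after the correction. *Lamb2* had 37.4, 34.6, 39.6, 38.7 and 38.8 FPKM in si-Control and 30.4, 32.6, 30.1, 29.1 and 29.3 FPKM in si-*Fndc1*, again without overlap. Its log2 fold change was -0.31 (SE 0.04, adjusted p = 0.0004 by edgeR). The share of *Lamb2* in the summed FPKM of both β chains was 67.2% ± 1.13 in si-Control and 64.4% ± 0.864 in si-*Fndc1* (two-sided exact permutation test, p = 0.0159, adjusted p = 0.0191), and 66.52% and 65.1% after the correction (permutation test, adjusted p = 0.238). With the length of the longest protein-coding transcript behind FPKM, and no correction, this share was 56.38% and 53.31%.

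*Lamc1* (ENSMUSG00000026478, chromosome 1 from 153094668 to 153208532, minus strand) encodes γ1, the γ chain of nearly all laminins. It had 34.2, 31.0, 34.2, 34.98 and 33.2 FPKM in si-Control and 29.7, 30.9, 28.3, 28.2 and 28.4 FPKM in si-*Fndc1*. The groups were separated only narrowly, with 30.97 FPKM in si-Control replicate 2 and 30.93 FPKM in si-*Fndc1* replicate 2. The log2 fold change was -0.20 (SE 0.04, adjusted p = 0.00337 by edgeR). The 3 α chains together had 1.42 ± 0.0209 times the FPKM of *Lamc1* in si-Control and 1.27 ± 0.0328 times in si-*Fndc1* (two-sided exact permutation test, p = 0.00794, adjusted p = 0.0119), whereas after the correction the values were 1.34 and 1.35 (permutation test, adjusted p = 0.467). With the length of the longest protein-coding transcript behind FPKM, and no correction, the values were 1.505 and 1.366. Summed over the 6 laminin genes, the level was 137.5 ± 5.92 FPKM in si-Control and 113.2 ± 5.41 FPKM in si-*Fndc1*.

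*Nid1* (ENSMUSG00000005397, chromosome 13 from 13612136 to 13686854, plus strand) encodes nidogen 1, which binds laminin γ1 and collagen IV. It had 48.6, 45.9, 48.6, 47.9 and 46.8 FPKM in si-Control and 44.7, 45.6, 41.3, 43.3 and 42.1 FPKM in si-*Fndc1*. No si-*Fndc1* library reached the lowest si-Control library, replicate 2, and the fall was the smallest of the 7 that passed the test (log2 fold change -0.12, SE 0.03, adjusted p = 0.0158, edgeR). *Hspg2* (ENSMUSG00000028763, chromosome 4 from 137196080 to 137297941, plus strand) encodes perlecan, a heparan sulfate proteoglycan that binds growth factors and dystroglycan. It was the most abundant of the 10 genes, with 170.2, 160.6, 182.5, 182.5 and 173.7 FPKM in si-Control and 118.9, 127.2, 114.3, 110.7 and 107.2 FPKM in si-*Fndc1*. All si-*Fndc1* libraries lay well below all si-Control libraries. The means were 173.9 ± 9.22 and 115.7 ± 7.76 FPKM, and the counts behind them ranged from 187558 to 217248 per si-Control library and from 98738 to 152390 per si-*Fndc1* library. The log2 fold change was -0.58 (SE 0.05, adjusted p = 3.34e-05 by edgeR), and 2.83% of all tested genes had a lower one. The ratio of *Hspg2* to *Nid1* was 3.66 ± 0.145 in si-Control and 2.66 ± 0.113 in si-*Fndc1* (two-sided exact permutation test, p = 0.00794, adjusted p = 0.0119). After the correction it was 3.21 and 3.03 (permutation test, p = 0.0159, adjusted p = 0.0952).

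The promoter windows of the 3 genes with the largest falls are printed for comparison with the collagen IV windows, with the same motifs in capitals.
*Hspg2* (chr4:137468553-137468852, plus strand): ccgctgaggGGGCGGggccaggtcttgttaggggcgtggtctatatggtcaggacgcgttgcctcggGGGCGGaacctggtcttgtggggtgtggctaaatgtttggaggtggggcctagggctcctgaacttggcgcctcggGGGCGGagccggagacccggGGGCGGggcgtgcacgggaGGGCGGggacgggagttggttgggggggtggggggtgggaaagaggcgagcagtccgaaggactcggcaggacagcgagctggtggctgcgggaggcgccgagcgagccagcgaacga
*Lama5* (chr2:180225810-180226109, minus strand): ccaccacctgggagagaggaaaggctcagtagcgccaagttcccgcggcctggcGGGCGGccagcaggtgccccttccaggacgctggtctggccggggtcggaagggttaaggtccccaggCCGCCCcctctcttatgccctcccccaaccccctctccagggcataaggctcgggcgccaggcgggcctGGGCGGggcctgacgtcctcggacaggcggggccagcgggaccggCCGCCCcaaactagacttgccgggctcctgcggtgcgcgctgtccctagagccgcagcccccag
*Lamb2* (chr9:108479612-108479911, plus strand): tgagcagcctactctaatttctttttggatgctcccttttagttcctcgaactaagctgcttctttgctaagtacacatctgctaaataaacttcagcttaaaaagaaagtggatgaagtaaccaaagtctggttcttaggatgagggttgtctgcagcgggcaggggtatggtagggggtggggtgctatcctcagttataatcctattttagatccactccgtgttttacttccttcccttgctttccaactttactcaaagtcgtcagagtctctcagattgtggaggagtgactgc
*Hspg2* had 5 GC boxes and *Lama5* 4, and neither had a CCAAT box. The *Lamb2* window, with a GC content of 44.0%, held neither motif, in contrast to 70.3% for *Hspg2* and 72.7% for *Lama5*. Over the 8 windows, 7 held a GC box (35.7% of all windows do), with the site shared by *Col4a1* and *Col4a2* counted in both. A CCAAT box was held by 4 (*Col4a1*, *Col4a2*, *Lamb1* and *Nid1*, against 37.4% of all windows) and a TATA box by none (13.6%). An E-box (CANNTG, the site that myogenic factors bind) was held by 4, and 72.3% of all windows hold one. Letters of a motif do not show that a factor binds there.

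**Figure D2:**
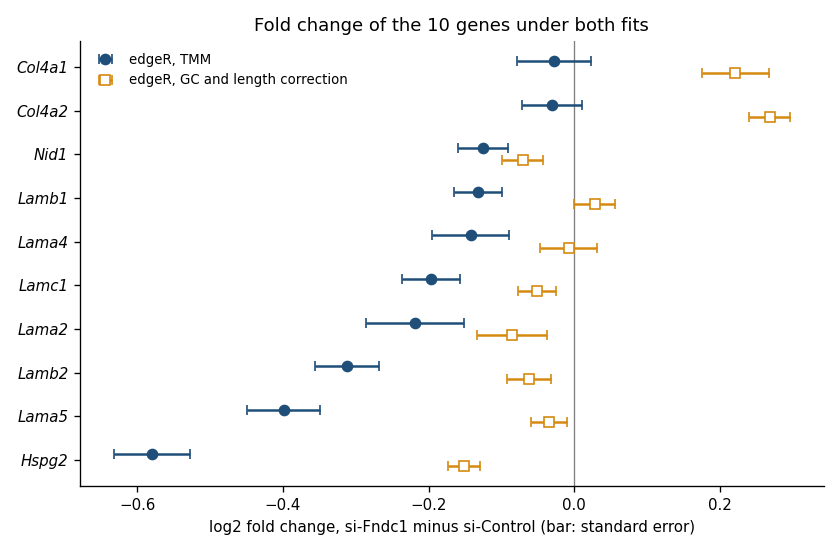
Log2 fold change of the 10 genes (si-*Fndc1* minus si-Control, horizontal axis), with bars for the standard error, from edgeR with TMM normalization (filled circles) and from edgeR with a correction for GC content and length within each library (open squares). In the first fit all 10 points lie below 0, from -0.58 for *Hspg2* to -0.03 for *Col4a1*, and in the second *Hspg2* lies at -0.15 and *Col4a1* and *Col4a2* at 0.22 and 0.27.

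In the order of their levels in si-Control, *Hspg2* (173.9 FPKM) stood above *Col4a2* (64.6), *Nid1* (47.6), *Col4a1* (44.2), *Lama5* (39.1), *Lamb2* (37.8), *Lamc1* (33.5), *Lamb1* (18.4), *Lama2* (5.61) and *Lama4* (3.05). Within each si-Control library this order held between all neighbours except *Nid1* and *Col4a1*, of which *Nid1* was the higher in 4 of 5 libraries. In si-*Fndc1* libraries *Lama5* was above *Lamb2* in only 1 of 5, while *Lamb2* stayed above *Lamc1* in 5 of 5. The order of *Lama5* and *Lamb2* rests on the transcript lengths behind the authors' FPKM. With the length of the longest protein-coding transcript instead, *Lamb2* already stood higher in si-Control. Set against summed *Col4a1* and *Col4a2*, *Lama5* was then at 0.337 and *Lamb2* at 0.353 in si-Control, and at 0.260 and 0.290 in si-*Fndc1*.

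Levels were also set against collagen IV, as a description with no test, since these ratios were chosen after the fold changes had been seen and all share the same denominator. The summed level of *Col4a1* and *Col4a2* was 108.7 ± 5.30 FPKM in si-Control and 106.0 ± 4.90 FPKM in si-*Fndc1*. The ratio of *Hspg2* to it was 1.60 ± 0.0790 in si-Control and 1.09 ± 0.0353 in si-*Fndc1*, that of *Lama5* was 0.360 ± 0.0160 and 0.278 ± 0.00648, and that of *Lamb2* was 0.348 ± 0.0159 and 0.286 ± 0.00595. The groups also did not overlap for *Lama2* and *Lamc1*, and overlapped for *Nid1*, *Lamb1* and *Lama4*, whose mean ratios were 0.936, 0.930 and 0.924 times those of si-Control. Once GC content and length were corrected for, the ratios were 0.756 times the si-Control value for *Hspg2* and 0.793 to 0.857 times for the others, in a fit in which *Col4a1* and *Col4a2* themselves rose, so these 8 values are not independent of that rise.

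**Figure D3:**
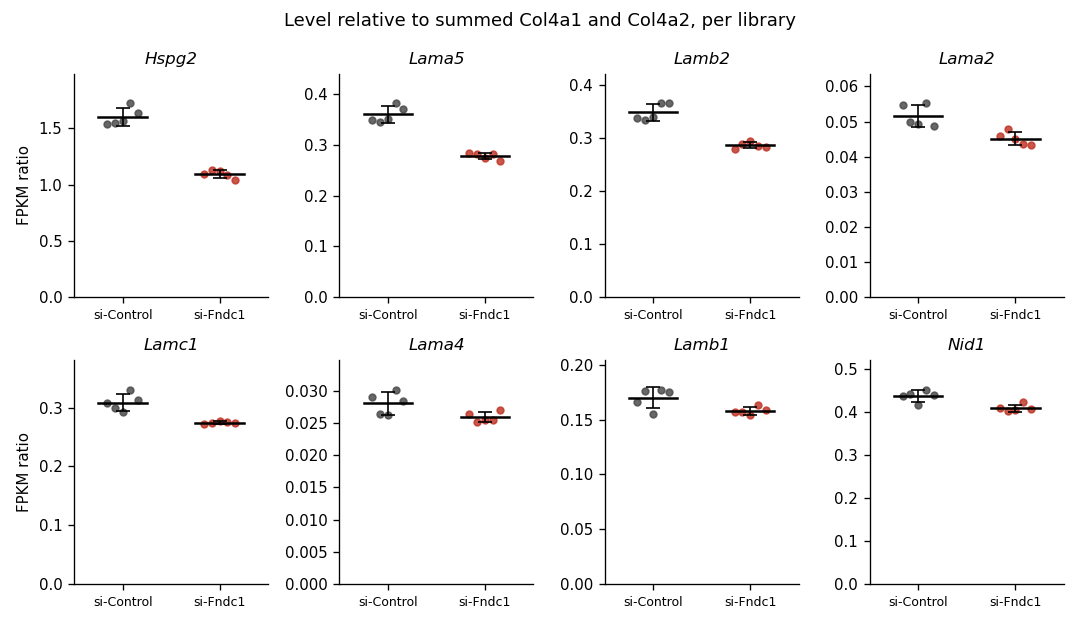
FPKM of 8 genes divided by the summed FPKM of *Col4a1* and *Col4a2* in each library (si-Control grey, si-*Fndc1* red, line and bar for mean and SD, n = 5 per group, axes from 0). For *Hspg2* the si-*Fndc1* libraries lie between 1.04 and 1.13 and the si-Control libraries between 1.54 and 1.73, and the groups overlap only for *Lama4*, *Lamb1* and *Nid1*.

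GC content moved with the fold changes of all genes. Over the 11185 tested genes with a GC content from transcripts of the build NCBIM37, the lowest-GC bin of 5 equal bins had a median log2 fold change of 0.17 with 1.92% of genes that fell, and the highest-GC bin had -0.18 with 43.3% that fell. The transcripts of the 10 genes ranged in GC content from 47.9% for *Lama2* to 60.9% for *Hspg2*. Of the 10 genes 5 lay in the highest bin, and the 1034 genes between 57.7% and 60.9%, the range of these 5, had a median log2 fold change of -0.20. Within that range *Lamb2* (-0.31), *Lama5* (-0.40) and *Hspg2* (-0.58) lay below the median and *Col4a1* and *Col4a2* (both -0.03) above it. The transcript lengths implied by the authors' counts and FPKM were 16390 bases for *Hspg2* and 12660 for *Lama5*, against 8299 for *Col4a1*, 7360 for *Col4a2* and 6763 for *Lamb2*.

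After the trend of the counts with GC content and length had been fitted in each library and used as an offset, 22.7% of the 11185 genes passed the threshold, 11.3% with a rise and 11.4% with a fall, and 3 of the 10 basement membrane genes did. *Col4a1* rose (log2 fold change 0.22, SE 0.05, adjusted p = 0.00649) and so did *Col4a2* (0.27, SE 0.03, adjusted p = 0.000111), and *Hspg2* fell (-0.15, SE 0.02, adjusted p = 0.000755, edgeR throughout). The other 7 had log2 fold changes between -0.09 (*Lama2*, adjusted p = 0.233) and 0.03 (*Lamb1*, adjusted p = 0.513, edgeR). Among these 7, *Nid1* had the smallest adjusted p-value (0.0973, log2 fold change -0.07), and *Lama5* was at -0.04 (adjusted p = 0.354) and *Lamb2* at -0.06 (adjusted p = 0.166, edgeR). Whether GC content marks a difference between the libraries or between the cells was not tested.

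**Figure D4:**
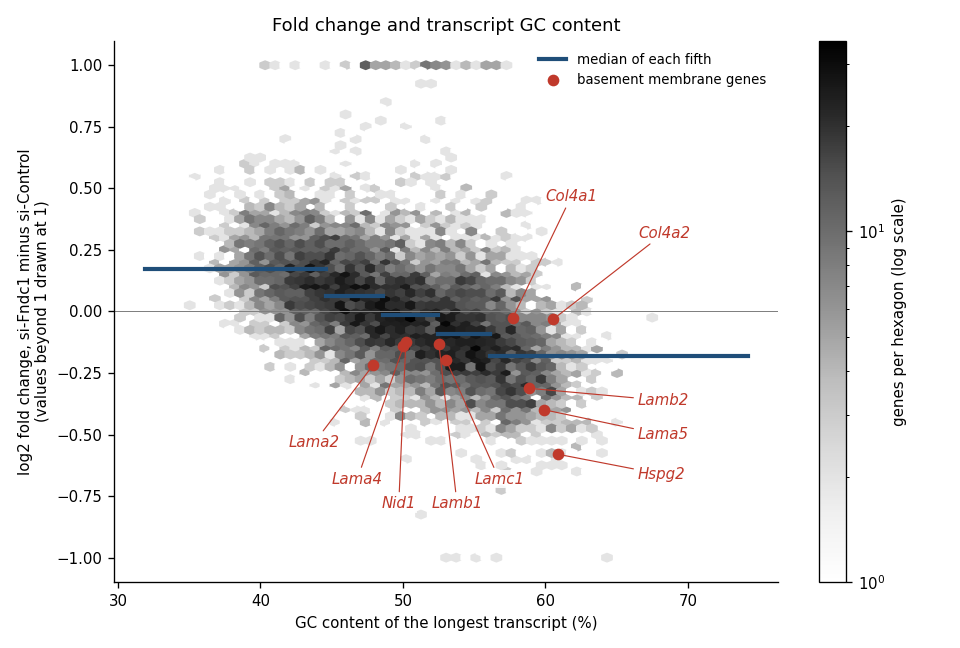
Log2 fold change (vertical axis, values beyond 1 in either direction drawn at the edge) against GC content of the longest transcript (horizontal axis, %) for 11185 tested genes, shaded by the number of genes per hexagon on a log scale. Blue lines give the median of each of 5 equal bins of GC content, from 0.17 to -0.18, and red points are the 10 basement membrane genes, of which *Hspg2* lies lowest (-0.58) and *Col4a1* and *Col4a2* lie above the median of their bin.

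Of the other chains of the same families, 4 of 10 were expressed enough to be tested. *Lamb3*, a β chain known from epithelial laminin, fell from 11.4 ± 0.608 to 9.07 ± 0.553 FPKM (log2 fold change -0.32, adjusted p = 0.000882, edgeR), and was at -0.10 after the correction (adjusted p = 0.271). *Nid2*, the second nidogen, had 58.04 to 60.55 FPKM in si-Control and 54.76 to 56.88 FPKM in si-*Fndc1* libraries (log2 fold change -0.07, adjusted p = 0.0504, edgeR, against 0.0364 with DESeq2 and a log2 fold change of 0.06 after the correction), so its level was higher than that of *Nid1* in both groups. *Col4a5* had 5.66 and 5.51 FPKM (adjusted p = 0.762, edgeR). *Lama1*, *Lama3*, *Lamc3*, *Col4a3*, *Col4a4* and *Col4a6* lay below the filter, with means of at most 0.483 FPKM.

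Among 18 further basement membrane and pericellular components, 13 were tested, of which 8 fell and 1 rose, against 3 and 1 after the correction. The share called was 69.2%, beside 34.4% of all tested genes, and 30.8% beside 22.7% after the correction. *Agrn*, whose product agrin clusters acetylcholine receptors, fell from 5.94 ± 0.415 to 4.82 ± 0.245 FPKM (log2 fold change -0.29, adjusted p = 0.00251, edgeR). *Col18a1*, the precursor of endostatin, fell from 20.8 ± 0.661 to 17.8 ± 1.18 FPKM (-0.22, adjusted p = 0.00566) and *Fbln2*, encoding fibulin 2, from 98.9 ± 2.97 to 88.4 ± 0.961 FPKM (-0.15, adjusted p = 0.00178, edgeR). These 3 lost their calls after the correction, where *Agrn* was at -0.02, *Col18a1* at 0.07 and *Fbln2* at 0.06. *Tinagl1* fell by 0.36 on the log2 scale (adjusted p = 0.00892) and was at -0.18 after the correction (adjusted p = 0.170, edgeR). *Sparc*, a collagen-binding matricellular protein, fell from 1356 ± 39.0 to 1213 ± 45.4 FPKM (-0.15, adjusted p = 0.00698) and *Tnc*, tenascin C, from 76.6 ± 1.65 to 64.9 ± 2.48 FPKM (-0.23, adjusted p = 0.0004, edgeR). Both also fell after the correction (-0.11 each, adjusted p = 0.0202 and 0.0486). With the replicate block added to the correction *Tnc* lost its call (-0.11, adjusted p = 0.112, edgeR). In that fit 2 genes of the list rose and 1 fell. *Pxdn*, which encodes the peroxidase that crosslinks collagen IV, had 28.9 ± 3.56 and 30.8 ± 3.07 FPKM (log2 fold change 0.10, adjusted p = 0.427, edgeR). After the correction it was at 0.26 (adjusted p = 0.0515, and 0.0464 with the replicate block, edgeR).

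**Figure D5:**
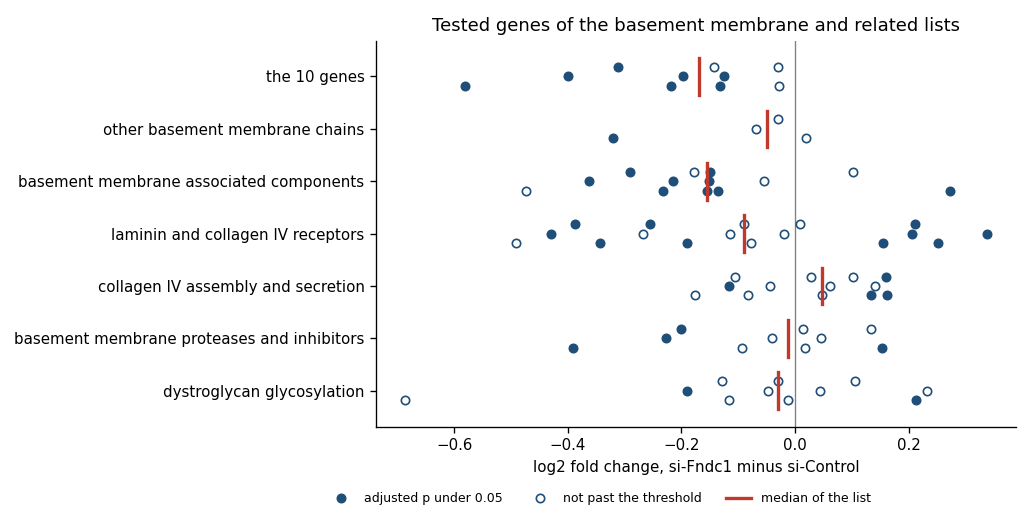
Log2 fold change (si-*Fndc1* minus si-Control, horizontal axis, without the GC and length correction) of each tested gene of 7 lists, with filled points for an adjusted p-value under 0.05 in edgeR and a red line at the median of each list. The median is lowest for the 10 genes (-0.17) and for the associated components (-0.16), lies at -0.09 for the receptors and is highest for collagen assembly and secretion (0.05).

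The receptors for laminin and collagen IV moved in both directions. Of 21 genes 17 were tested, 5 rose and 5 fell, with 3 and 3 after the correction. The share called was 58.8%, beside 34.4% of all tested genes, and 35.3% beside 22.7% after the correction. *Itgb1*, the β subunit of the laminin- and collagen-binding integrins, rose (287.1 ± 15.5 and 329.4 ± 26.1 FPKM, log2 fold change 0.21, adjusted p = 0.0139), and *Itga7*, the laminin-binding α subunit typical of muscle, fell (188.6 ± 11.0 and 164.3 ± 11.8 FPKM, -0.19, adjusted p = 0.0228, edgeR). After the correction both were at 0.07 (adjusted p = 0.421 and 0.228). The call for *Itga7* also depended on single libraries, with adjusted p-values up to 0.0553 when 1 was left out. *Itga6* had 4.61 and 4.53 FPKM (adjusted p = 0.852), and *Itga1*, a collagen IV receptor subunit, lay below the filter at 0.0797 and 0.0775 FPKM. *Itga3* fell (log2 fold change -0.26, adjusted p = 0.000165) and was at -0.03 after the correction (adjusted p = 0.414, edgeR). *Dag1*, which encodes dystroglycan, had 91.2 ± 13.99 and 75.3 ± 5.11 FPKM (-0.27, adjusted p = 0.0507, edgeR). It passed the threshold with DESeq2 (-0.27, adjusted p = 0.0175), with library size alone (adjusted p = 0.0482), among genes of at least 5 FPKM (0.0415) and without replicate 2 of si-Control (0.0114) or si-*Fndc1* (0.0366), and was at -0.11 after the correction (adjusted p = 0.388, edgeR). The smallest p-value of the list was that of *Ddr1*, a collagen receptor tyrosine kinase, which fell from 31.7 ± 0.752 to 23.4 ± 0.394 FPKM (-0.43, adjusted p = 7.93e-06) and also fell after the correction (-0.18, adjusted p = 0.000317, edgeR). *Utrn*, encoding utrophin, fell in both fits (-0.34 and -0.20, adjusted p = 0.000498 and 0.000481), as did *Sdc3* (-0.39 and -0.14, adjusted p = 0.000113 and 0.0347). With the replicate block added to the correction *Sdc3* lost its call (-0.14, adjusted p = 0.0938, edgeR). Of the syndecans, *Sdc2* rose from 192.3 ± 6.99 to 241.7 ± 6.72 FPKM in the first fit (0.34, adjusted p = 4.85e-05) and also after the correction (0.13, adjusted p = 0.00372, edgeR). *Sgcb*, β-sarcoglycan, rose (0.25, adjusted p = 0.00075) and was at 0.08 after the correction (adjusted p = 0.251, edgeR).

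All 13 genes for collagen assembly and secretion were tested, and 3 rose and 1 fell. The share called was 30.8%, beside 34.4% of all tested genes. *P4ha1*, a subunit of prolyl 4-hydroxylase, rose from 59.9 ± 1.36 to 66.6 ± 2.63 FPKM (log2 fold change 0.16, adjusted p = 0.00266), *Plod2*, a lysyl hydroxylase, from 34.97 ± 0.591 to 38.9 ± 1.19 FPKM (0.16, adjusted p = 0.00122) and *Lox*, lysyl oxidase, from 285.7 ± 3.62 to 311.9 ± 10.5 FPKM (0.13, adjusted p = 0.00439, edgeR). After the correction these were at 0.05, 0.00 and -0.04 and none passed. *Plod1* fell (-0.12, adjusted p = 0.0390, and up to 0.0956 with 1 library left out) but rose after the correction (0.09, adjusted p = 0.0464, edgeR). *Serpinh1*, the collagen chaperone HSP47, had 317.2 ± 84.9 FPKM in si-Control, where replicate 5 stood at 166.0 FPKM and the others at 347.0 or above, and 347.6 ± 16.04 FPKM in si-*Fndc1* (adjusted p = 0.582, edgeR).

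Of 13 proteases and inhibitors that act on the basement membrane, 10 were tested, with 3 that fell and 1 that rose. The share called, 40.0%, stands beside 34.4% of all tested genes. *Mmp14*, the membrane-type metalloproteinase that activates MMP2, fell from 158.4 ± 5.63 to 120.2 ± 3.32 FPKM (log2 fold change -0.39, adjusted p = 2.40e-05) and also fell after the correction (-0.23, adjusted p = 0.000651, edgeR). *Ctsb*, cathepsin B, fell in both fits (-0.20 and -0.19, adjusted p = 0.00184 and 0.00763, edgeR). *Bmp1*, a procollagen protease, fell (-0.23, adjusted p = 0.000512) and *Timp1*, an inhibitor of metalloproteinases, rose (0.15, adjusted p = 0.0082), and after the correction both lost their calls and turned direction (0.06 and -0.02, edgeR). Of 12 genes that build the laminin-binding glycan of dystroglycan, 11 were tested, with *Rxylt1* rising (0.21, adjusted p = 0.0171) and *Pomt2* falling (-0.19, adjusted p = 0.0249), neither of which passed after the correction (0.07 and -0.05, adjusted p = 0.470 and 0.474, edgeR). Without the correction 18.2% of this list was called, beside 34.4% of all tested genes. The call for *Pomt2* was also lost with single libraries left out (adjusted p up to 0.0593).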

How the data were processed

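Processed values of 10 mRNA-sequencing libraries of C2C12 cells were used, 5 si-Control and 5 si-*Fndc1*, grouped and numbered by their titles. The paper's methods speak of 4 libraries without saying which, so all 10 were used. The authors deposited, for each gene and library, a raw read count and an FPKM value, with FPKM listed as 0.0001 where no read was counted. The paper's methods name TopHat, mm10 and htseq-count, the series description names STAR and mm9, and the processing notes name GRCm39, cutadapt 1.9 and FastQC. Gene starts in the table equal those of GRCm38 for 291 of 38173 genes and for 0 of the 10 members. How FPKM was computed and whether counting used strand are not given in the sources used here, so reads in the overlap of *Col4a1* and *Col4a2* cannot be assigned. No column of values per library was left without a sample (0).

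Genes whose FPKM averaged 0.5 or more across all 10 libraries were tested on the counts with edgeR 4.0.16 (quasi-likelihood test, TMM) in R 4.3.3, and the standard error was taken as the size of the log2 fold change divided by the square root of F. Alternatives were DESeq2 1.42.0, which the study names, limma 3.58.1 on log2(FPKM + 1), other scalings and filters, each library left out, a replicate block, and a correction in which the trend of log counts (0.5 added) with GC content and length was fitted per library with splines of 5 degrees of freedom (Huber regression, MASS 7.3.60.0.1) and used as an offset. GC content was that of the longest protein-coding transcript in NCBIM37, and length was that implied by count and FPKM. Ratios and shares of FPKM were compared with exact permutation tests (two-sided), whose smallest p-value with 5 against 5 libraries is 0.00794. As an alternative they were computed from counts scaled by library size and by the length of the longest protein-coding transcript in NCBIM37. The steps were tested on simulated counts. Python 3.11.15, numpy 2.4.6 and pandas 2.3.3 were used for tables.

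The members and lists were chosen with earlier results of these data known. Named genes were all members, *Fndc1*, up to 6 called genes per list with the smallest p-values, and *Itga6*, *Itga7*, *Itgb1*, *Dag1*, *Itga1*, *Agrn*, *Nid2*, *Col4a5*, *Sparc*, *Pxdn* and *Serpinh1*. The untested chains were named after their values were seen, and 1 gene of the lists is not reported here. The least abundant member, *Lama4*, had 2117 to 3286 counts per library. The size of the counting error beside the spread between libraries was not computed.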

Additional observations from a re-analysis of the deposited data

Results flagged for a closer look

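Groups of 5 libraries were examined for a library far from the others, not only for the named genes and members. Of 112 groups 8 held one, where chance alone flags about 1 in 20. None was a value of the 10 basement membrane genes. *Serpinh1* stood at 166.0 FPKM in si-Control replicate 5, against 347.0 to 365.4 FPKM in the other si-Control libraries, and at 319.8 FPKM in si-*Fndc1* replicate 2, against 348.0 FPKM for the nearest library. *Itgb1* was high in si-Control replicate 3 (314.6 FPKM, nearest 283.7) and in si-*Fndc1* replicate 1 (375.5 FPKM, nearest 321.9). *Pxdn* was high in si-Control replicate 3 (35.09 FPKM, nearest 28.55) and low in si-*Fndc1* replicate 5 (25.36 FPKM, nearest 31.91). *Ddr1* was low in si-Control replicate 2 (30.42 FPKM, nearest 31.87), and *Pomt2* was high in si-*Fndc1* replicate 2 (3.921 FPKM, nearest 3.338).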

How the results depend on the processing

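The correction for GC content and length changed most results, and the cause was not tested. It left 2536 calls among 11185 genes and 3 among the 10 members, 0 for the other chains, 4 for the associated components, 6 for the receptors, 2 for assembly and 2 for the proteases. With the replicate block added these counts were 1645, 3, 0, 3, 5, 1 and 2, and 1 for dystroglycan glycosylation. Direction turned under the correction, without and with the block, for *Col4a1* (0.221 and 0.224), *Col4a2* (0.268 and 0.268), *Lamb1* (0.028 and 0.028), *Fbln2* (0.058 and 0.057), *Col18a1* (0.073 and 0.073), *Lox* (-0.040 and -0.040), *Plod1* (0.085 and 0.085), *Bmp1* (0.061 and 0.061), *Timp1* (-0.019 and -0.020), *Itga6* (0.043 and 0.043), *Itga7* (0.066 and 0.066), *Nid2* (0.059 and 0.059) and *Col4a5* (0.049 and 0.049). Under it the differences (si-*Fndc1* minus si-Control) were 0.043 for *Col4a2* to *Col4a1*, 0.2365 percentage points for the *Lama5* share, 0.0102 for α chains to *Lamc1*, -1.40 for the *Lamb2* share, 0.1531 for the *Lama4* share and -0.1756 for *Hspg2* to *Nid1*. The replicate numbers did not pair the libraries (correlations of same-numbered deviations -0.055 to 0.064, and only number 3 matched best with itself). With the replicate block, 5 members (without *Lama2* and *Nid1*, adjusted p = 0.0549 and 0.0632, edgeR) and 3572 genes were called, and 1 gene of dystroglycan glycosylation. Sign permutation over the numbered pairs gave -2.79, -2.226, 1.045, -0.152 and -0.9909 for the *Lamb2*, *Lama5* and *Lama4* shares, α chains to *Lamc1* and *Hspg2* to *Nid1*, where 5 pairs cannot give a p-value under 0.0625. The other chains had 2 calls with library size alone, DESeq2, limma or a minimum of 5 FPKM. That minimum left 1 call for glycosylation and removed *Lama4* from the test. With 1 library left out, 6 to 8 members were called, 1 to 2 other chains, 1 to 3 glycosylation genes and 4016 to 4626 genes in all. Fold changes then ranged from -0.051 to 0.013 for *Col4a1* (positive without si-Control replicate 3), from -0.064 to 0.014 for *Itga6* (0.014, 0.002, 0.001 and 0.014 in the 4 turned cases), from -0.061 to 0.004 for *Col4a5* (0.003 and 0.004) and from -0.023 to 0.194 for *Serpinh1* (negative without si-Control replicate 5), and the *Col4a2* to *Col4a1* difference from -0.0293 to 0.0137 (0.0137, 0.0121 and 0.00131 in the turned cases). Members kept their calls and directions under the other scalings, DESeq2, limma and no filter, with 5019 genes called in all by DESeq2. With the length of the longest protein-coding transcript behind FPKM, the 6 ratios and shares kept their calls and directions, while the sizes of the shares differed.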
